A study of Arabidopsis thaliana with 8 samples.

Results

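The UDP-glycosyltransferases (UGTs) of Arabidopsis thaliana were followed through 8 Affymetrix arrays of leaf RNA. Members were all probe sets annotated to 1 gene whose symbol is UGT and a number, with the probe set of highest mean signal kept for each gene. This gave 47 genes, each with 1 probe set, of 22810 probe sets on the array and of 13350 genes with a probe set of their own in the annotation. The arrays held 4 groups of 2, numbered 1 and 2 in the labels: Columbia wild type (Col-0) and the abh1 mutant, each given a mock spray of water or a spray of abscisic acid (ABA) at 50 µM. Plants were 4 weeks old, green tissue was taken 4 h after spraying, and the RNA of 3 biological replicates was pooled for each array. ABH1 encodes the larger of the proteins that hold the cap of new transcripts in the nucleus, and the mutant is known for its hypersensitivity to ABA. The labels do not name the mutant allele or say whether arrays with the same number share a sowing or a day. No probe set was listed under ABH1 in the annotation used here, so the genotype labels were not checked against that gene.

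UGTs move a sugar from a UDP-sugar onto small molecules, among them hormones, phenylpropanoids, flavonoids and foreign compounds, and the product is usually more soluble and often inactive until a glucosidase frees it. The number in a plant UGT name groups genes by sequence similarity, and subfamily here means the members that share this number. Members of such a group often stand side by side in the genome. In leaves some members inactivate ABA, cytokinins, auxins or salicylate, while others finish the synthesis of glucosinolates, flavonol glycosides and hydroxycinnamate esters.

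Values are array signals on a linear scale, already brought by the authors' software to a common trimmed mean, which was 500.04 to 500.05 on all 8 arrays. Arrays numbered 1 had lower median signals (130.7 to 160.5) than arrays numbered 2 (179.5 to 215.8), without overlap. Of the leaf marker genes listed, 4 of 32 were found by symbol, all above the filter, with a summed signal of 54070 to 69360 per array. It was 61150 to 63680 in mock-sprayed and 54070 to 65940 in ABA-sprayed wild type, and 60180 to 69360 in mock-sprayed and 56020 to 69330 in ABA-sprayed abh1. Of 14 root markers 2 were found, neither above the filter, with a summed signal of 55.11 to 196.4. No flower or seed marker was found under the symbols listed. In whole leaves, fewer cells of a type and less RNA per cell cannot be told apart.

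Of the 47 genes, 23 had a mean signal over 115.4, the 40th percentile of all probe sets, and were tested. The UGT85 subfamily kept 4 of 5 members, UGT72 3 of 4, UGT74 2 of 3, UGT78 2 of 3 and UGT84 2 of 5. The UGT71 subfamily kept 3 of 9 members, UGT76 3 of 8 and UGT73 1 of 7, and the single members of UGT80, UGT87 and UGT88 were all kept. UGT85A3, with a mean of 117, lay just above the threshold, and UGT76D1, with 86.7, was the nearest below it. In 21 of the 23 the mean of every group was over the threshold. The exceptions were UGT85A3, with a lowest group mean of 110, and UGT85A4, with 63.8. The filter used the mean over all 8 arrays without regard to group, so high groups can carry a gene past it. UGT85A4 had means of 194 and 126 in mock- and ABA-sprayed wild type and 161 in mock-sprayed abh1, and its lowest was in ABA-sprayed abh1.

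**Figure D1:**
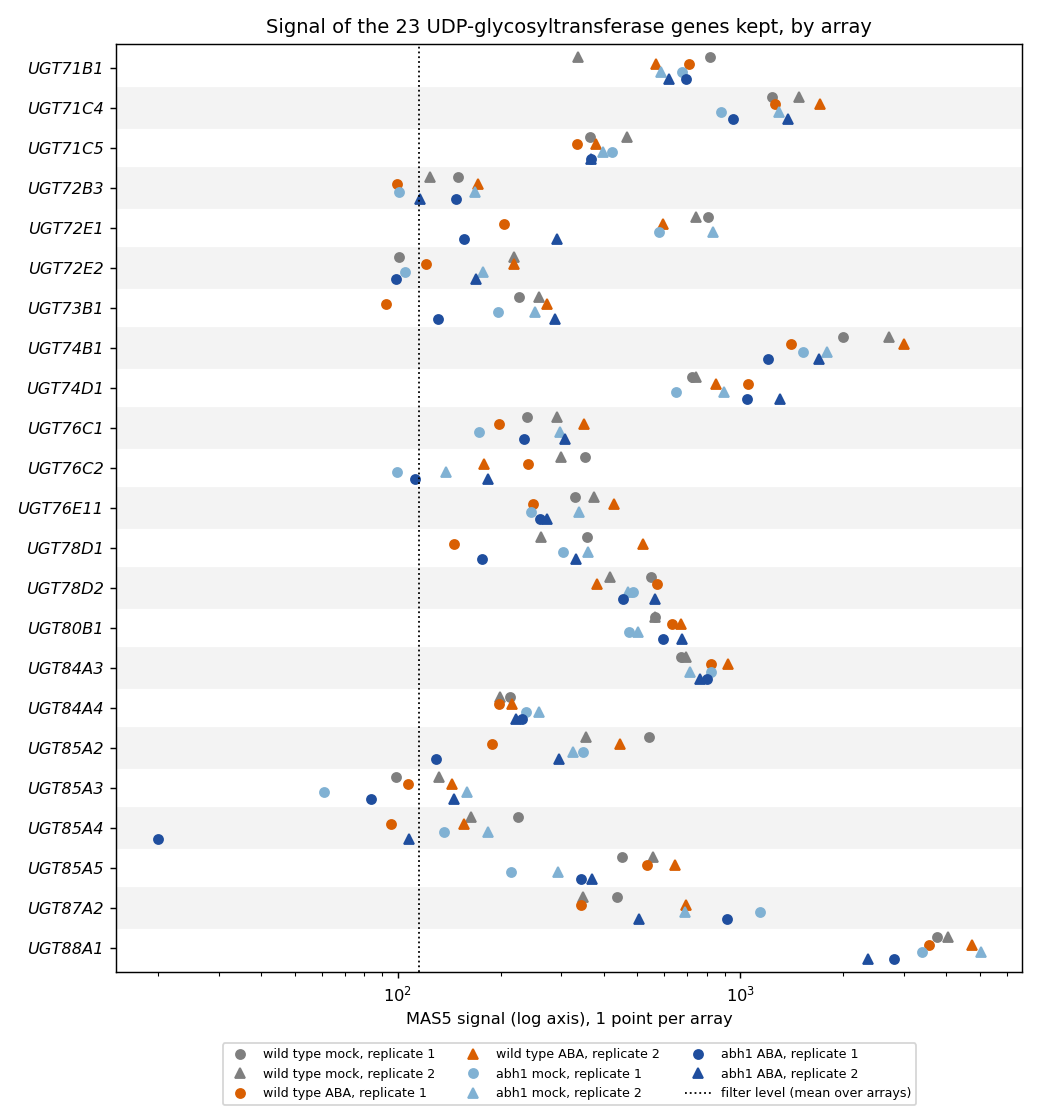
Signal of the 23 UGT genes above the filter on each of the 8 arrays (log axis), by subfamily, with colour for the group and shape for the replicate number. Each gene is plotted on its own scale of probe affinity, so positions are to be compared along a gene and not between genes.

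The 24 genes below the filter had signals of 2.1 to 154, and 3 of them passed 115.4 on any array. On all 8 arrays 2 of them, UGT73B4 and UGT78D3, were under the 10th percentile of that array's signals, and 9 were so on 4 or more arrays. They were left out of the tests. In a fit of all probe sets without the filter limma called 0 of the 24 in any comparison. Of all probe sets it called 1 for the average ABA effect, 1 for the average abh1 effect and 1918 for the replicate number. At an unadjusted p under 0.05 that fit gave 2 of the 24 for the average abh1 effect, UGT76E1 at 0.76 and UGT85A7 at 1.09. Both were named after their values were seen. It gave 1 for abh1 after mock (UGT76E1), 1 for abh1 after ABA (UGT85A7), 6 for the replicate number and 0 in the other comparisons. The share of all probe sets at that level without the filter was not counted. Among probe sets above the filter it was 4.7% for the average abh1 effect, 2.92% after mock, 1.66% after ABA and 44.4% for the replicate number. Several well-studied enzymes were among the 24. UGT71B6, which glucosylates ABA, lay between 2.56 and 12.4. UGT74F1 and UGT76B1, which act on salicylate, lay at 8.49 to 16.8 and 11.4 to 84.1. UGT84B1, which acts on auxin, lay at 6.62 to 40.6, and UGT72E3, which glucosylates monolignols, at 4.67 to 21.3. UGT84A1, which makes hydroxycinnamate esters, lay at 5.04 to 45.8.

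The first question was how leaves respond to ABA. UGT72E1 (AT3G50740), which glucosylates the aldehydes on the path to lignin, was lower after ABA in both genotypes. Its signal in wild type was 804 and 745 after mock spray and 205 and 597 after ABA. In abh1 it was 578 and 832 after mock spray and 156 and 292 after ABA. All 4 ABA arrays lay below the mock arrays of their genotype, and the ABA array numbered 1 was the lower one in each genotype. The log2 change averaged over genotypes was -1.39 ± 0.36 (SE), 2.62-fold lower. With limma and Benjamini-Hochberg adjustment over all 13652 probe sets the adjusted p was 0.289, and with the replicate number as a block it was 0.0362. The block called UGT72E1 alone of the 23 members, where it called 2.31% of all probe sets tested. Within replicate number 1 the change was -1.88 and within number 2 it was -0.90. Leaving out each array in turn from the fit without a block, UGT72E1 passed in 1 of 8 cases, without the wild-type ABA array numbered 2 (-1.76, adjusted p = 0.0172). In the other 7 the adjusted p was 0.362 to 0.903, and the value was -1.01 without the wild-type ABA array numbered 1. All p-values rest on differences between pooled arrays and may partly reflect technical spread. For a single pair of groups the smallest possible exact p is 0.33.

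Taken by genotype, the change of UGT72E1 was -1.12 ± 0.52 in wild type and -1.66 ± 0.52 in abh1. The wild-type value was -0.37 without the ABA array numbered 1 and -1.87 without that numbered 2. Neither passed the threshold with limma, at adjusted p = 0.999 and 0.892, or 0.297 and 0.142 with the block. The difference between them was -0.54 ± 0.73, with an adjusted p of 1, and it turned to 0.21 without the wild-type ABA array numbered 2. The other members of its subfamily above the filter did not show this pattern. UGT72E2 (AT5G66690), which glucosylates monolignols, had signals of 101 and 218 after mock and 121 and 218 after ABA in wild type. In abh1 the values were 105 and 178 after mock and 99.2 and 169 after ABA, so mock and ABA groups overlapped in both genotypes. UGT72B3, which falls outside the rule for named genes and is given to complete the subfamily, lay between 99.8 and 172 on all arrays.

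UGT85A4 (AT1G78270) also lay lower on all ABA arrays than on the mock arrays of the same genotype. Its signal was 224 and 164 after mock and 95.5 and 156 after ABA in wild type. In abh1 it was 137 and 184 after mock and 19.9 and 108 after ABA, and the array at 19.9 stood far below the rest. The change was -0.61 ± 0.67 in wild type, -1.52 ± 0.67 in abh1 and -1.07 ± 0.48 on average. Without the array at 19.9 the values in abh1 and on average were -0.53 and -0.57, and without the other ABA array of abh1 they were -2.52 and -1.57. None passed the threshold with limma, and the adjusted p of the average was 0.605, or 0.171 with the block.

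UGT74D1 (AT2G31750), which acts on auxin-related compounds, was higher after ABA. Its signal was 725 and 743 after mock and 1053 and 851 after ABA in wild type, and 651 and 897 after mock and 1050 and 1305 after ABA in abh1. The groups did not overlap in either genotype. The average change was 0.49 ± 0.20, 1.4-fold, with a limma adjusted p of 0.56, or 0.168 with the block. UGT80B1 (AT1G43620), a sterol glucosyltransferase, was the other member with all ABA arrays higher. It read 563 and 564 after mock and 633 and 671 after ABA in wild type, and 475 and 503 after mock and 594 and 678 after ABA in abh1. Its replicates were close, and its average change of 0.29 ± 0.17 had an adjusted p of 0.673.

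UGT74D1 and UGT80B1 were thus the 2 members of 23 with ABA arrays higher without overlap in both genotypes, where 5.5% of all probe sets did so. UGT72E1 and UGT85A4 were the 2 with ABA arrays lower, where 5.42% did so. In wild type alone 3 members were higher and 3 lower without overlap, against 10.4% and 13.3% of all probe sets. In abh1 alone 3 were higher and 6 lower, against 15.8% and 21.9%. These shares are near those of all probe sets. The median change of the 23 averaged over genotypes was -0.03, beside -0.08 over all probe sets, and it became 0.11 under median centring and 0.08 under quantile normalization. Without the block limma called 0 members in either genotype or on average, where it called 0% in each genotype and 0.11% on average of all probe sets. At an unadjusted p under 0.05 the counts were 0 members in wild type (4.2% of all probe sets), 2 in abh1 (4.22%) and 2 on average (8.51%).

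**Figure D2:**
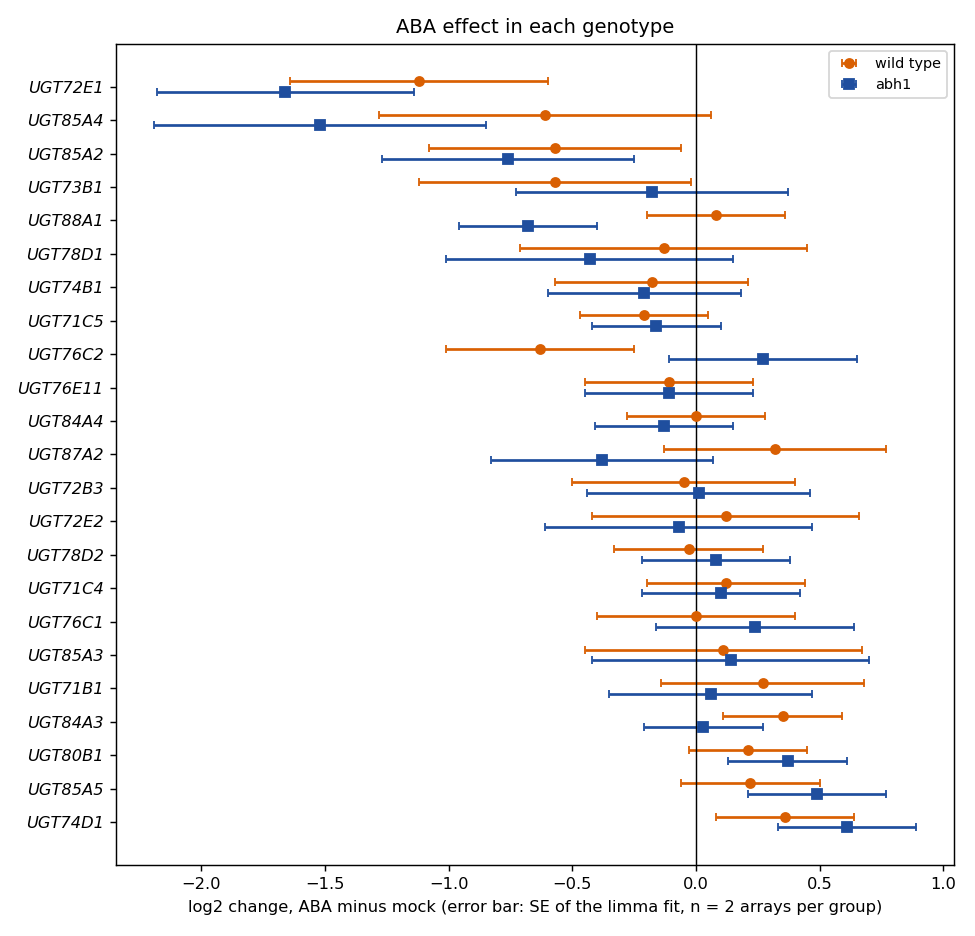
ABA effect (log2, ABA minus mock) of each of the 23 UGT genes in wild type and in abh1, with the standard error of the limma fit as bars (n = 2 arrays per group). UGT72E1 and UGT85A4 have the lowest values in abh1, -1.66 and -1.52, and most other genes lie near 0.

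Of the members that act on ABA itself, UGT71C5 (AT1G07240), which forms the ABA glucose ester, was above the filter and stayed within a narrow range. Its signal was 365 and 467 after mock and 333 and 380 after ABA in wild type, and 422 and 398 after mock and 367 on both ABA arrays in abh1. The ABA arrays of abh1 lay below its mock arrays, and the wild-type groups overlapped. The flavonoid enzymes gave no separation of mock and ABA in wild type. UGT78D1 (AT1G30530), a flavonol rhamnosyltransferase, read 356 and 262 after mock and 146 and 522 after ABA in wild type, and 303 and 360 after mock and 176 and 331 after ABA in abh1. Its ABA array numbered 1 was the lowest and its ABA array numbered 2 the highest in wild type. UGT78D2 (AT5G17050), a flavonoid glucosyltransferase, lay between 383 and 570 on all arrays. UGT76E11 (AT3G46670), which glucosylates flavonoids, lay between 245 and 427.

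The next question was how abh1 differs from wild type. UGT85A5 (AT1G22370) was lower in abh1 under both treatments. Its signal after mock spray was 453 and 558 in wild type and 214 and 294 in abh1. After ABA it was 535 and 645 in wild type and 344 and 370 in abh1. Every abh1 array lay below every wild-type array. The change averaged over treatments was -0.84 ± 0.20, 1.79-fold lower, and it was -0.98 ± 0.28 after mock and -0.70 ± 0.28 after ABA. Within the replicate numbers the averages were -0.83 and -0.84. The ABA effect of the gene was 0.22 ± 0.28 in wild type and 0.49 ± 0.28 in abh1. The limma adjusted p of the average was 0.502, and 0.0642 with the block, so it did not pass the threshold. With the block after quantile normalization it was -0.87 with an adjusted p of 0.0358.

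UGT76C2 (AT5G05860), which inactivates cytokinins by N-glucosylation, was lower in mock-sprayed abh1. Its signal after mock spray was 353 and 299 in wild type and 99.6 and 138 in abh1, so the groups lay well apart. After ABA it was 240 and 179 in wild type and 112 and 183 in abh1, where the groups overlapped. The mock difference was -1.40 ± 0.38, 2.64-fold lower, with a limma adjusted p of 1, or 0.227 with the block. The difference after ABA was -0.50 ± 0.38, and the average was -0.95 ± 0.27 with an adjusted p of 0.682, or 0.162 with the block. Its neighbour UGT76C1 (AT5G05870), another cytokinin N-glucosyltransferase, did not show this. It read 238 and 291 in wild type and 173 and 297 in abh1 after mock, and 198 and 349 in wild type and 234 and 308 in abh1 after ABA, with overlap in both treatments.

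UGT87A2 (AT2G30140), which is known for its part in flowering time, was higher in mock-sprayed abh1. It read 436 and 348 in wild type and 1143 and 691 in abh1 after mock, without overlap. After ABA it read 342 and 693 in wild type and 913 and 508 in abh1, and the order of the genotypes differed between the replicate numbers. The difference was 1.17 ± 0.45 after mock, 2.25-fold, with a limma adjusted p of 1. After ABA it was 0.47 ± 0.45, made of 1.39 within number 1 and -0.44 within number 2.

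UGT74B1 (AT1G24100), which glucosylates the last intermediate of the glucosinolate core, was lower in abh1 within each replicate number and treatment. It read 2000 and 2725 in wild type and 1525 and 1797 in abh1 after mock, and 1409 and 3016 in wild type and 1209 and 1695 in abh1 after ABA. The mock groups did not overlap and the ABA groups did. The average difference was -0.51 ± 0.28 with a limma adjusted p of 1, or 0.294 with the block. UGT71C4 (AT1G07250) read 1237 and 1481 in wild type and 877 and 1299 in abh1 after mock, and 1263 and 1707 in wild type and 952 and 1378 in abh1 after ABA. Its groups overlapped, and abh1 was lower within each replicate number, with an average of -0.35 ± 0.23.

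The UGT84 enzymes that form hydroxycinnamate esters were close in both genotypes. UGT84A4 (AT4G15500) read 213 and 199 in wild type and 237 and 258 in abh1 after mock, and 197 and 216 in wild type and 230 and 221 in abh1 after ABA. It was the 1 member with every abh1 array higher in both treatments, at an average of 0.19 ± 0.20 and a limma adjusted p of 1. UGT84A3 (AT4G15490) read 672 and 697 in wild type and 821 and 714 in abh1 after mock, and 824 and 924 in wild type and 799 and 765 in abh1 after ABA. The genotypes did not overlap in either treatment, with abh1 above wild type after mock and below it after ABA.

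**Figure D3:**
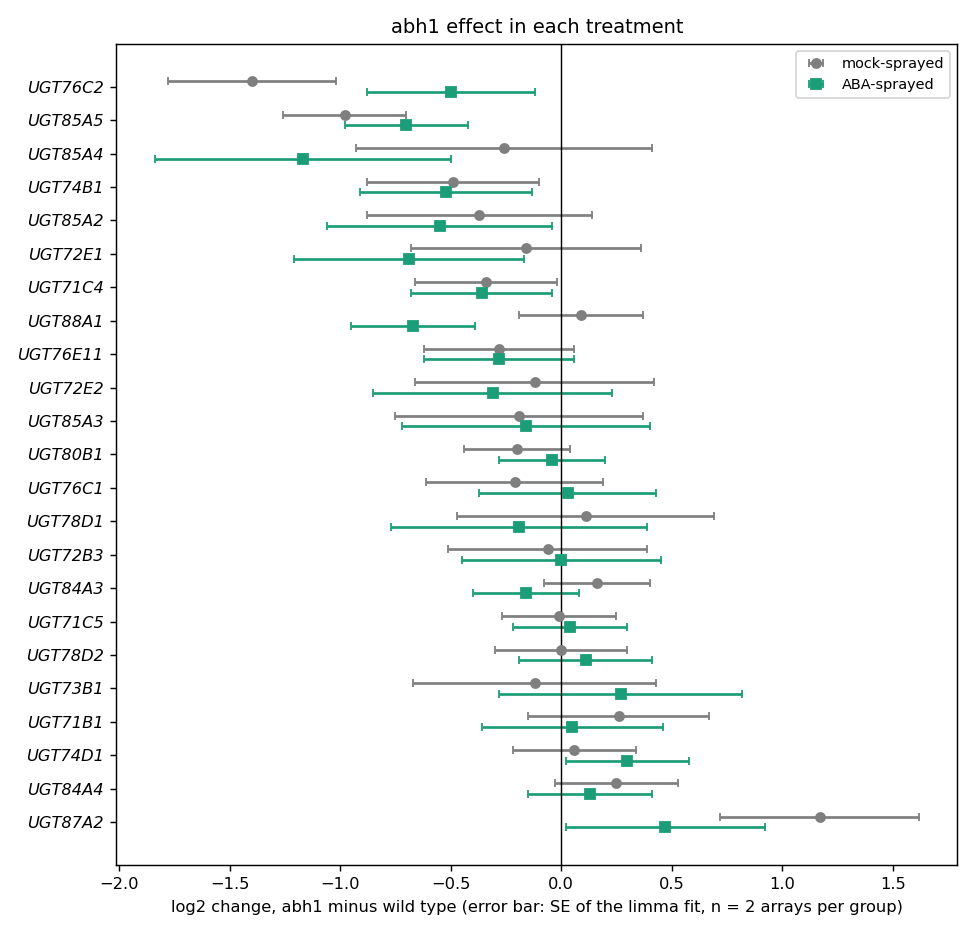
abh1 effect (log2, abh1 minus wild type) of each of the 23 UGT genes after mock and after ABA spray, with the standard error of the limma fit as bars (n = 2 arrays per group). UGT76C2 (-1.40) and UGT85A5 (-0.98) are lowest and UGT87A2 (1.17) is highest after mock spray.

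All 4 UGT85 members, all 3 UGT76 members and all 3 UGT72 members above the filter had average abh1 values below 0. They ran from -0.84 to -0.17, -0.95 to -0.09 and -0.42 to -0.03. These values were also below 0 under quantile normalization. Median centring lowered every value by the same amount, so it could not turn these signs. Members of the same subfamilies below the filter had mixed signs. Without the filter UGT85A7 was at 1.09, and 4 of 5 UGT76 genes were above 0, up to 0.76 in UGT76E1. The remaining UGT76 gene, UGT76E12, was at -0.14, and UGT72E3 was at -0.05. Over the 23 members 15 values were below 0 and 8 above (17 and 6 under either scaling, as UGT71C5 and UGT84A3, both near 0, turned below it), where 53.7% of all probe sets were above 0, with a median of -0.12 beside 0.02 over all probe sets. Of the 23, 13 were lower in abh1 within both replicate numbers, where 25.2% of all probe sets were. Limma called none of these differences, with or without the block, and members share arrays, so the count has no test here. Without the filter the median over all 47 was -0.03. UGT85A5 was the 1 member with every abh1 array lower in both treatments, where 3.14% of all probe sets were, and UGT84A4 the 1 with every array higher, where 3.76% were. After mock spray 3 members were higher and 5 lower in abh1 without overlap, against 13.7% and 14.3% of all probe sets. After ABA 1 was higher and 3 were lower, against 10.7% and 6.89%. Limma called 0 members in either treatment or on average, where it called 0% after mock, 0% after ABA and 0.0146% on average of all probe sets. With the block it called 0 members on average, against 0.513%. At an unadjusted p under 0.05 the counts were 3 members after mock (2.92% of all probe sets), 2 after ABA (1.66%) and 3 on average (4.7%).

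The third question was whether the response to ABA differs between the genotypes. For no member did limma call the difference of the ABA effects, with 0 of 23 at an adjusted p under 0.05, 0 at an unadjusted p under 0.05, where 0% and 0.278% of all probe sets passed. The comparisons after ABA and in abh1 share the ABA-sprayed abh1 arrays, so their values are not independent. UGT88A1 (AT3G16520) read 3765 and 4031 after mock and 3557 and 4758 after ABA in wild type. In abh1 it read 3399 and 5056 after mock and 2811 and 2359 after ABA. The ABA-sprayed abh1 arrays were the 2 lowest of the 8, and the wild-type groups overlapped. Its ABA effect in wild type was 0.08 ± 0.28, that in abh1 -0.68 ± 0.28, and the difference -0.76 ± 0.39 with an adjusted p of 1. Within the replicate numbers that difference was -0.19 and -1.34. UGT76C2 had an ABA effect of -0.63 ± 0.38 in wild type and 0.27 ± 0.38 in abh1, and the difference was 0.90 ± 0.53 with an adjusted p of 1. In UGT85A4 the difference was -0.91 ± 0.95, and it turned to 0.09 without the ABA-sprayed abh1 array numbered 1.

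In the fit with the number as a term limma called 3 of 23 members, all higher on the arrays numbered 2, where it called 25% of all probe sets. At an unadjusted p under 0.05 it was 8 members, where 44.4% of all probe sets passed. UGT72E2 had the smallest p, with 101, 121, 105 and 99.2 on the arrays numbered 1 and 218, 218, 178 and 169 on those numbered 2. Its difference was 0.82 ± 0.19 with an adjusted p of 0.0285. In the same limma fit UGT74B1 was higher on number 2 by 0.56 ± 0.17 (adjusted p = 0.0455) and UGT71C4 by 0.45 ± 0.13 (adjusted p = 0.0472). UGT76C1 at 0.55 ± 0.17 (adjusted p = 0.0501) and UGT73B1 at 0.77 ± 0.25 (adjusted p = 0.0549) did not pass. UGT73B1 (AT4G34138), which glucosylates flavonoids in vitro, read 226, 92.6, 196 and 131 on the arrays numbered 1 and 259, 273, 251 and 288 on those numbered 2.

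The array numbered 2 was higher than that numbered 1 within each of the 4 groups in 9 members, against 34.7% of all probe sets. UGT71B1, outside the rule for named genes, was the 1 member with the opposite order, against 17.9%, at 815, 709, 675 and 693 on number 1 and 337, 566, 586 and 619 on number 2. The median difference of the members was 0.27 beside 0.18 over all probe sets, and 19 of 23 were above 0, where 62.6% of all probe sets were. This depended on the scaling. Median centring moved the median of all probe sets to -0.23 and that of the members to -0.14, and then only UGT71B1 passed, at -0.89 with a limma adjusted p of 0.0125. UGT72E2 did not pass after median centring (0.41, adjusted p = 0.159) or quantile normalization (0.36, adjusted p = 0.207). No member passed when any single mock-sprayed array was left out.

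**Figure D4:**
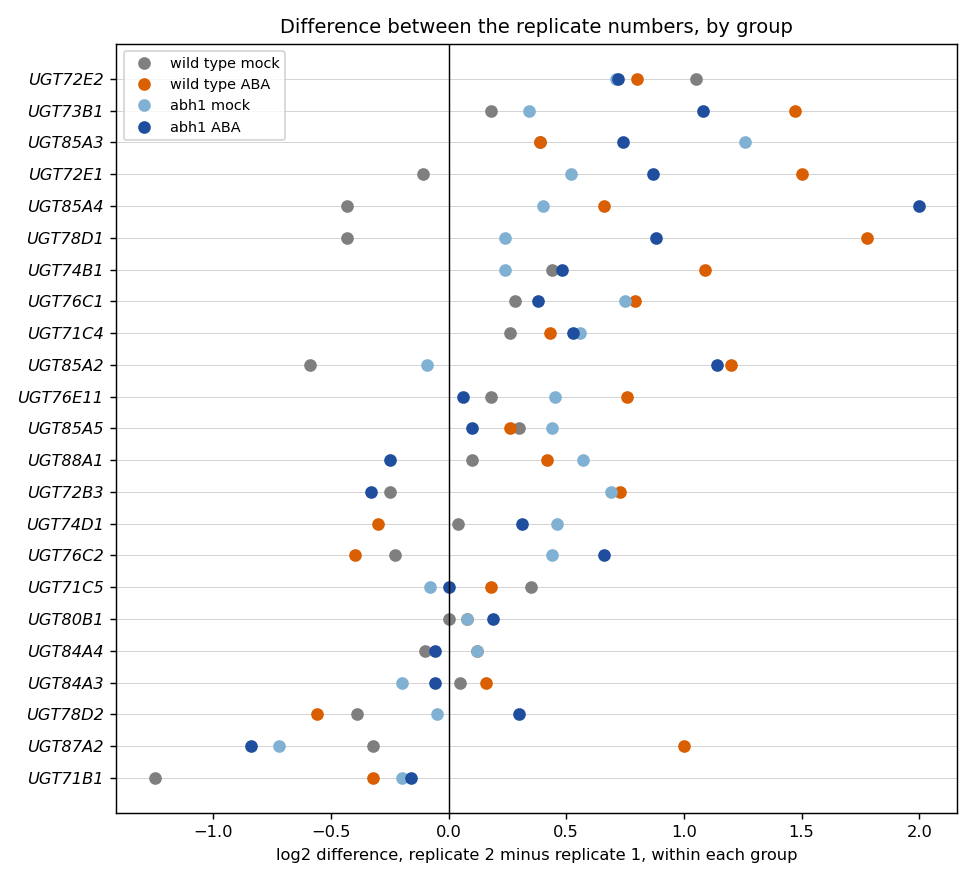
Difference between the replicate numbers (log2, number 2 minus number 1) of each of the 23 UGT genes within each of the 4 groups. UGT72E2 lies between 0.71 and 1.05 in all 4 groups, while UGT72E1, UGT73B1, UGT78D1 and UGT85A2 lie above 0.8 in both ABA groups and in neither mock group.

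In 6 of the 23 the ABA arrays numbered 1 of wild type and abh1 were the 2 lowest of all 8 arrays, which is 26.1% and near the 19.2% of all probe sets that showed this. They were UGT72E1, UGT73B1, UGT74B1, UGT78D1, UGT85A2 and UGT85A4, and the pattern was chosen after their values were seen. In no member were those arrays the 2 highest, where 9.41% of all probe sets showed it. UGT85A2 (AT1G22360) read 540 and 354 after mock and 189 and 446 after ABA in wild type, and 348 and 326 after mock and 129 and 295 after ABA in abh1. Its average ABA effect of -0.66 ± 0.36 was -1.42 within number 1 and 0.09 within number 2. Whether the difference between the numbers depends on treatment was not tested, beyond the block and the values within numbers.

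Of the 47 members 24 stood next to another member in the RefSeq gene order, in 14 pairs. In 5 pairs both genes were above the filter, in 3 one was and in 6 neither. Over the 8 arrays the log2 signals of the 5 pairs correlated at 0.03 (UGT71C5 and UGT71C4), 0.23 (UGT76C2 and UGT76C1), -0.04 (UGT84A3 and UGT84A4), 0.17 (UGT85A2 and UGT85A5) and 0.51 (UGT85A5 and UGT85A3). These values are a description over 8 arrays that share groups and scaling. UGT85A3, outside the rule for named genes, read 98.9 and 132 after mock and 107 and 144 after ABA in wild type, and 60.9 and 159 after mock and 83.6 and 146 after ABA in abh1. Its groups overlapped in each comparison of ABA or genotype, unlike those of its neighbour UGT85A5 between genotypes.

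Few other genes of the pathways around the UGTs were found by symbol. Of 35 names for the supply of UDP-sugars 1 was found, USP, a UDP-sugar pyrophosphorylase, with signals of 496 to 798 and an average ABA effect of -0.22 ± 0.18. Of 29 names for phenylpropanoid and flavonoid synthesis 3 were found and 2 were above the filter, and limma called 0 of them for ABA or genotype. HCT, an acyltransferase on the path to lignin, was at -0.72 ± 0.26 for the average ABA effect (limma adjusted p = 0.491, or 0.106 with the block) and at -0.71 ± 0.26 for the average abh1 effect (adjusted p = 0.944, or 0.203 with the block). DFR, an anthocyanin enzyme, was higher on the arrays numbered 2 by 2.48 ± 0.23, with a limma adjusted p of 0.004. Of 9 names for ABA inactivation and release 1 was found, the beta-glucosidase BGLU33, which differed by 0.99 ± 0.29 between the numbers (limma adjusted p = 0.046) and by -0.57 ± 0.47 with ABA (adjusted p = 0.748). Of 14 glutathione S-transferases, which conjugate foreign compounds, 7 were above the filter and 0 were called by limma in any comparison. For the average ABA effect 5 of the 7 were above 0 and 2 below, and GSTU16 had the smallest p at 0.69 ± 0.24 (adjusted p = 0.488, or 0.0623 with the block). No ABCC or MRP transporter and no CKX gene was found under those symbols.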

How the data were processed

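Per the series text and the submitters' processing notes, the authors hybridised biotin-labelled cRNA and deposited MAS5 signal values, 1 per probe set and array. The genome build is not given in the sources used here. Probe sets were named from the platform annotation, in which 13513 had 1 gene symbol, 503 several and 8794 were unlisted. Gene order came from RefSeq TAIR10.1, with protein-coding genes sorted by start position on each chromosome.

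An offset of 9.38 (10th percentile) was added, log2 taken, 64 control probe sets removed, and the 13652 probe sets with a mean signal of at least 115.4 (40th percentile) fitted with limma 3.58.1 in R 4.3.3 (4 group means, 4 residual degrees of freedom, eBayes with trend, Benjamini-Hochberg, two-sided, threshold 0.05). Tests were also checked on simulated data. Without the block, the fit called 14 of 100 simulated probe sets given an average ABA effect of 1 on the log2 scale. At an effect of 2 it called 70 of 100, and 6 unchanged probe sets were called too. The fit with the block, checked by itself, called 36 and 89, and 3 unchanged probe sets. No gain from the block was read from these numbers. How near the simulated spread comes to that of the real arrays was not tested. All 47 members have 1 probe set, so averaging probe sets would change nothing.

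Whether equal replicate numbers pair arrays was read from the data, since the labels say nothing of it. In all 6 group pairs, deviations from the group means of same-numbered arrays correlated, at 0.394 to 0.714 over all tested probe sets, so the block was used beside the fit without it. Over the 23 members alone the correlation was 0.0311 to 0.503 and over 0.1 in 4 of the 6 pairs, so the pairing is weaker there. Alternatives were an offset of 32, no filter, a 60th percentile filter, median centring, quantile normalization, eBayes without trend, the replicate block, and leaving out each array.

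Named genes are UGT72E1, UGT76C2, UGT85A5 and UGT88A1, the 5 members with the smallest p in each of 8 comparisons, the highest of each subfamily and members with textbook substrates. The members and lists were chosen with earlier results of these data known. The symbol CHI in the annotation is a chitinase and was left out of the flavonoid list. Protein and promoter sequences were not analysed here.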

Additional observations from a re-analysis of the deposited data

Results flagged for a closer look

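For 3 genes the changes within both replicate numbers went one way in one genotype or treatment and the opposite way in the other. The test of the difference did not call any of them. The share of all probe sets with this pattern was not counted, and some of these changes were near 0. The abh1 effect of UGT84A3 was 0.04 after mock within number 2 and -0.04 after ABA within number 1. That of UGT73B1 within number 2 was -0.04 after mock and 0.07 after ABA. UGT76C2 had an ABA effect in abh1 that was higher than in wild type by 0.90 ± 0.53 (log2, limma adjusted p = 1), with ABA effects within the replicate numbers of -0.54 and -0.71 in wild type and 0.16 and 0.38 in abh1. UGT84A3 had an abh1 effect after ABA minus that after mock of -0.32 ± 0.34 (adjusted p = 1), and within the replicate numbers it was -0.33 and -0.31. In UGT73B1 the same difference was 0.39 ± 0.78 (adjusted p = 1), and without the wild-type ABA array numbered 1 it was -0.35.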

How the results depend on the processing

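Single genes gave 56 results under 870 settings, of which 408 settings that kept all arrays and 418 that left one out held both the direction and the side of the threshold. None of these 56 turned direction while all arrays were kept.

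With the replicate block the count of probe sets called was 1 for ABA in wild type, 17 in abh1 and 315 on average, and 16 after mock, 1 after ABA and 70 on average for abh1. The block with quantile normalization gave 75, 80 and 493, and 26, 2 and 119. For the average ABA effect (15 called) an offset of 32 gave 28, no filter 1, the 60th percentile filter 32, median centring 0, quantile normalization 48 and eBayes without trend 0. For the average abh1 effect (2 called) no filter, quantile normalization and eBayes without trend each gave 1, and for abh1 after mock quantile normalization gave 1. For the replicate number (3410 called) no filter gave 1918 and the 60th percentile filter 2241. For the average ABA effect the block called 1 member (UGT72E1), also after quantile normalization. For the average abh1 effect it called 1 (UGT85A5) after quantile normalization. For the replicate number members called became 0 without the filter, 1 with median centring (UGT71B1), 4 with an offset of 32 (UGT76C1 added) and 2 with the 60th percentile filter or quantile normalization (UGT71C4 and UGT74B1). With eBayes without trend they were 3, UGT72E2, UGT76C1 and UGT85A3. The block changed no other call of a member.

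The median change of the members for ABA in abh1 was -0.11 with the 60th percentile filter, 0.09 with median centring and 0.06 with quantile normalization, with or without the block. For the average ABA effect it was 0.11 with median centring and 0.08 with quantile normalization, with or without the block. Without the filter it was 0.03 for abh1 after ABA and -0.03 for the average abh1 effect, over all 47 genes. For the replicate number it was -0.14 with median centring.

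Leaving out each array in turn, the count of probe sets called ran from 0 to 135 for ABA in wild type, 0 to 30 in abh1 and 0 to 891 on average, each highest without the wild-type ABA array numbered 2. It ran from 0 to 7 for the average abh1 effect and from 60 to 3101 for the replicate number. Members called ran from 0 to 1 for the average ABA effect and 0 to 3 for the replicate number. The median of the members ran from -0.28 to 0.27 for ABA in wild type, -0.19 to 0 in abh1 and -0.18 to 0.08 on average. For abh1 it ran from -0.32 to 0.06 after mock, -0.36 to 0.05 after ABA and -0.29 to -0.03 on average, for the difference of the ABA effects from -0.30 to 0.21, and for the replicate number from 0.22 to 0.37. Single genes turned direction in 11 combinations of a result and a left-out array. The ABA effect in wild type ran from -1.17 to 0.03 in UGT85A2 and -0.13 to 0.29 in UGT88A1, and that in abh1 from -0.06 to 0.60 in UGT76C2. The abh1 effect after mock ran from -0.20 to 0.38 in UGT88A1. After ABA it ran from -0.02 to 0.97 in UGT87A2, -1.44 to 0.06 in UGT72E1 and -1.07 to 0.02 in UGT74B1. The difference of the ABA effects ran from -0.35 to 1.12 in UGT73B1, -1.29 to 0.21 in UGT72E1 and -1.91 to 0.09 in UGT85A4. With fewer arrays a lone array is assumed to vary like the other groups, and apart from fewer arrays or probe sets tested the cause of these changes was not tested. The number of arrays limits the precision of every value.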

Other observations

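Another 3 probe sets name a UGT together with another gene and were not counted as members. The one for UGT73B2 and UGT73B3 read 109 to 377, the one for AT1G73885 and UGT89B1 461 to 786, and the one for UGT71D1 and AT2G29710 29.1 to 180.

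UGT85A7 (AT1G22340), a neighbour of UGT85A2, lay below the filter and was chosen after its values were seen. It read 59.5 and 66.5 after mock and 20.3 and 29.7 after ABA in wild type, and 53.5 and 133 after mock and 84.3 and 139 after ABA in abh1. After ABA both abh1 arrays lay above both wild-type arrays, and without the filter the difference was 1.79 with a limma adjusted p of 1. The average abh1 effect in that fit was 1.09 (unadjusted p = 0.0258, adjusted p = 1). Without the filter its ABA effect in wild type was -1.08 against 0.32 in abh1, and the difference of 1.40 had an adjusted p of 1.

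UGT76E1 (AT5G59580), also below the filter and also chosen after its values were seen, read 3.6 and 5.8 in wild type and 30 and 15.6 in abh1 after mock, and 4.1 and 4.74 in wild type and 5.19 and 12 in abh1 after ABA. The wild-type arrays and both ABA-sprayed abh1 arrays were under the 10th percentile of their array. In the limma fit without the filter the abh1 effect was 1.16 after mock (adjusted p = 1) and 0.76 on average (unadjusted p = 0.0183, adjusted p = 0.973).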
